A study of Homo sapiens with 20 samples.

Results

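Von Willebrand factor (VWF), the angiopoietin receptor TEK (also called TIE2), its relative TIE1, the VEGF receptors KDR (VEGFR2) and FLT1 (VEGFR1), and the junction proteins PECAM1 (CD31) and CDH5 (VE-cadherin) are best known from the endothelium, the cell layer that lines blood vessels. They are described here in human embryonic stem cells directed toward endoderm. The 7 genes are 7 of the 54435 features in the count files. They were chosen by their names and with day 4 levels in view: VWF was selected on its levels in both knockout lines at day 4, so comparisons of the 7 genes that use day 4 libraries are given as values without p-values, and counts of them past a threshold are set beside the share of all features with nothing read from them.

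H1, a long-established line of human embryonic stem cells, was used as wild type (WT) and as lines labelled DIGIT KO1 and DIGIT KO2; DIGIT is a long noncoding RNA gene beside the homeobox gene GSC. At day 0 the cells were kept in mTeSR1, a feeder-free stem cell medium, and at day 4 they had been treated with Activin A at 50 ng/ml in B27-supplemented RPMI. Activin A signals through SMAD2 and SMAD3 and drives stem cells toward endoderm, the layer that forms gut, liver and pancreas. Poly(A) RNA was sequenced from 6 groups of 2 libraries: WT, KO1 and KO2 at day 0 and at day 4. Each knockout genotype is a single line, so line and genotype cannot be told apart within a line, and the level of DIGIT itself was not analysed here.

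As background, KDR is the main signalling receptor for VEGFA in vessels, and FLT1 binds VEGFA tightly while signalling weakly, so that it can act as a trap. TEK is activated by ANGPT1 and, depending on context, held back or activated by ANGPT2; TIE1 was long regarded as an orphan receptor and modulates TEK. VWF is stored in the Weibel-Palade bodies of endothelial cells and tethers platelets to injured vessel walls, while PECAM1 and CDH5 join endothelial cells to each other. KDR is also made by mesodermal precursors and is present in human embryonic stem cells.

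Upstream sequence was available from RefSeq (GRCh38.p14) for 4 of the 7 genes: TEK, TIE1, KDR and FLT1. The 250 bases before the start site are shown for TEK, which differed between lines already at day 0, and for the VEGF receptors KDR and FLT1, whose levels moved differently. Capitals mark matches, on either strand, to 7 motifs, searched as exact letters. They are the GATA motif GATAA, the forkhead motif TATTTAC, the SOX motif ACAAAG and the cAMP response element TGACGTCA. The others are the ETS motif AGGAAG, the GC box GGGCGG and the TATA box TATAAA.
TEK, chr9:27108975-27109224, plus strand: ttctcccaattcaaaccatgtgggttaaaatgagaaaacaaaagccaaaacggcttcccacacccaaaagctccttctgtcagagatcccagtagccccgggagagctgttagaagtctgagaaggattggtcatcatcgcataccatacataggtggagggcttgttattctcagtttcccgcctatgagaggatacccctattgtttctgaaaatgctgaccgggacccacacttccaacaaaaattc
KDR, chr4:55125596-55125845, minus strand: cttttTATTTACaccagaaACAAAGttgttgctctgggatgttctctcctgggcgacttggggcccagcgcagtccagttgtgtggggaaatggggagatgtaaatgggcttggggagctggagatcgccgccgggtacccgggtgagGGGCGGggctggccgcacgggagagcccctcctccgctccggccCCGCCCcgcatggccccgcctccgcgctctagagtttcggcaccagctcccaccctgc
FLT1, chr13:28495129-28495378, minus strand: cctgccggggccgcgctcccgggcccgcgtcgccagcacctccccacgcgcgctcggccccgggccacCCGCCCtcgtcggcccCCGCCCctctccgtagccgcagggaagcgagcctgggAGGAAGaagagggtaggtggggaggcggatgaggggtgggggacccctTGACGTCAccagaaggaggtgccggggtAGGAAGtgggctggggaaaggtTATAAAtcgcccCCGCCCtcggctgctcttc
In KDR the forkhead match began 245 bases and the SOX match 231 bases before the start site, followed by 2 GC boxes. FLT1 held a cAMP response element 81 bases and a TATA box 31 bases before its start, with 2 ETS motifs and 3 GC boxes. None of the 7 motifs was found in the TEK window. This says only that these exact letters are not in it, and shorter forms were not searched. Among 35116 upstream windows of the same length, 2.39% held the forkhead motif, 13.7% the SOX motif and 1.65% the cAMP response element. The ETS motif was in 28.7%, the GC box in 42.6%, the TATA box in 10.7% and the GATA motif in 20.4%.

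The libraries held 9942016 to 21394547 counts assigned to features. Levels are CPM (counts divided by the library total and given on a common scale) scaled by TMM factors, which correct for differences in library composition. They are compared within a gene, or as sums over a fixed list of genes, because gene lengths were not used. Of the 7 genes, 6 passed the filter on low counts and PECAM1 did not. The 2 KO1 day 0 libraries stood apart from each other: their counts differed by a chi-square per gene of 20.1, against 1.89 to 3.83 in the other 5 pairs. This value does not say which of the 2 is the odd one. It also grows with depth, and these were the deepest libraries (17859275 and 21394547 counts). Many values that rest on KO1 at day 0 are therefore also given with 1 of its libraries left out. The sources used here do not say that the replicates were separate cultures, so p-values measure the spread between these libraries.

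**Figure D1:**
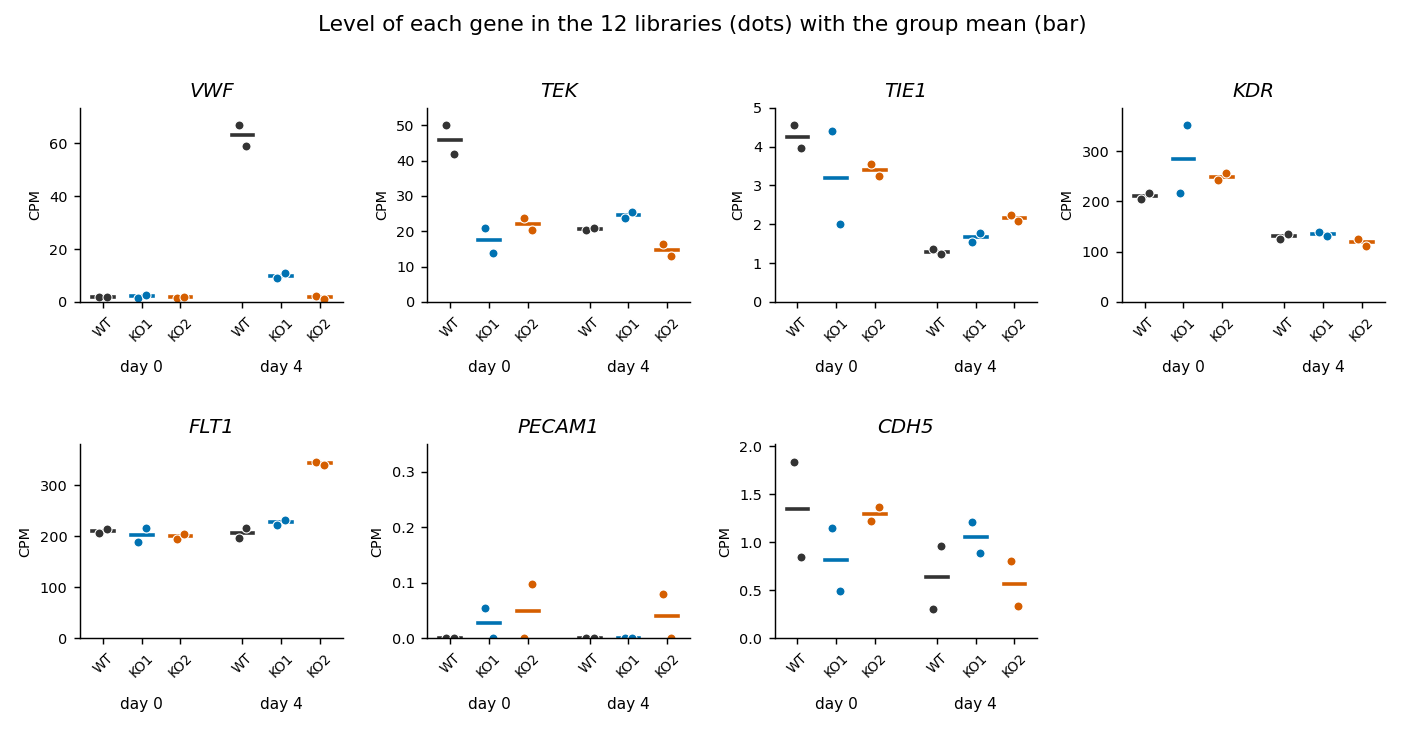
Level of each of the 7 genes (vertical axes, CPM, each from 0) in the WT, KO1 and KO2 groups at day 0 and day 4; dots are libraries and bars are group means. VWF is high in the WT day 4 libraries (59.0 and 66.7 CPM), FLT1 in those of KO2 at day 4 and TEK in those of WT at day 0, while PECAM1 stays below 0.1 CPM.

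VWF was the member with the widest range. In WT cells it was at 2.03 and 2.05 CPM at day 0 and at 66.7 and 59.0 CPM at day 4. KO1 had 1.59 and 2.76 CPM at day 0 and 8.89 and 11.1 CPM at day 4. In KO2 the libraries were at 1.498 and 2.06 CPM at day 0 and at 2.33 and 1.27 CPM at day 4. WT at day 4 therefore lay above every other library, KO1 at day 4 lay between, and the remaining 4 groups overlapped one another. The raw counts behind the day 4 levels were 875 and 916 for WT cells, 103 and 161 for KO1 cells, and 29 and 19 for KO2 cells.

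From day 0 to day 4 the mean VWF level was 30.8-fold higher in WT (log2 difference 4.94, SE 0.23) and 4.59-fold higher in KO1 (2.17, SE 0.23). The KO1 value was 1.87 with replicate 1 of KO1 at day 0 left out and 2.66 with replicate 2 left out. In KO2 the log2 difference was -0.01 with an SE of 0.38, and its libraries at the 2 days overlapped. The KO1 mean at day 4 was 6.30-fold lower than WT (log2 difference -2.64, SE 0.18). The KO2 mean was 34.95-fold lower than WT (-5.15, SE 0.23) and 5.55-fold lower than KO1 (-2.51, SE 0.26). Without KO2 day 4 replicate 1 or replicate 2, the difference of KO2 from WT was -5.63 or -4.75, so the size rests on 19 to 29 counts per library. In bulk RNA, fewer cells that make VWF and less VWF RNA per cell cannot be told apart. The human genome holds a partial VWF pseudogene, and reads from shared exons cannot be assigned with certainty, so the lowest VWF levels are uncertain.

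TEK, the angiopoietin receptor, was higher at day 0 than at day 4 in WT cells. It was at 50.0 and 41.8 CPM in WT at day 0, at 21.0 and 13.9 CPM in KO1 and at 23.8 and 20.3 CPM in KO2. At day 4 the libraries were at 20.2 and 20.9 CPM in WT, 23.6 and 25.3 CPM in KO1, and 16.5 and 13.0 CPM in KO2. Both WT libraries at day 0 lay above all 10 others, and neighbours in the order of the other 5 groups overlapped. TEK was the only member past the threshold at day 0. Its mean was 2.63-fold lower in KO1 than in WT (log2 -1.40, SE 0.17, edgeR adjusted p = 0.00104) and 2.08-fold lower in KO2 (log2 -1.05, SE 0.17, edgeR adjusted p = 0.0202). The difference for KO1 kept its side of the threshold in all 18 alternatives, with adjusted p from 6.57e-23 to 0.0401. For KO2 the adjusted p over the alternatives ran from 2.16e-11 to 0.421, and the call was lost without WT day 0 replicate 1 (0.364), WT day 0 replicate 2 (0.134), KO2 day 0 replicate 1 (0.175) or KO2 day 0 replicate 2 (0.421).

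Over the 4 days the log2 difference of TEK was -1.15 in WT (SE 0.17) and -0.59 in KO2 (SE 0.18), and 0.50 in KO1 (SE 0.17), where it was 0.82 with the first and 0.23 with the other day 0 library left out. The libraries of the 2 days did not overlap in any of the lines. At day 4 the log2 difference from WT was 0.25 in KO1 (SE 0.17) and -0.49 in KO2 (SE 0.18), and KO2 against KO1 it was -0.74 (SE 0.18). TIE1, the relative that modulates TEK, was at 4.55 and 3.96 CPM in WT at day 0 and at 1.37 and 1.22 CPM at day 4. KO1 had 4.39 and 2.002 CPM at day 0 and 1.55 and 1.79 CPM at day 4, and KO2 had 3.56 and 3.23 CPM, then 2.25 and 2.07 CPM. Day 4 libraries were lower than day 0 libraries within every line, with log2 differences of -1.70 in WT (SE 0.35), -0.90 in KO1 (SE 0.33) and -0.65 in KO2 (SE 0.34). The KO1 value was -0.25 with replicate 1 of KO1 at day 0 left out and -1.37 with replicate 2 left out. The 3 groups did not overlap at day 4 and stood in the order KO2, KO1, WT, over a span of 1.22 to 2.25 CPM.

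TIE1 at day 0 did not pass the test in KO1 (log2 -0.43, SE 0.29, edgeR adjusted p = 0.639) or in KO2 (log2 -0.31, SE 0.31, edgeR adjusted p = 1). The KO1 value depended on 1 library. With replicate 1 of KO1 at day 0 left out it was -1.07 (edgeR adjusted p = 0.00407), and with replicate 2 left out it was 0.06 (edgeR adjusted p = 0.981).

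KDR was lower at day 4 than at day 0 in all 3 lines. Its levels in WT were 205 and 217 CPM at day 0 and 125 and 135 CPM at day 4. KO1 had 217 and 352 CPM at day 0 and 139 and 131 CPM at day 4, and KO2 had 243 and 257 CPM, then 125 and 112 CPM. Every day 0 library lay above every day 4 library, and KO1 day 0 replicate 2 was the highest of the 12. The log2 difference between days was -0.70 in WT (SE 0.15), -1.08 in KO1 (SE 0.15) and -1.07 in KO2 (SE 0.15). Without KO1 day 0 replicate 2 the value for KO1 was -0.68, and without replicate 1 it was -1.38. At day 4 the differences from WT were 0.05 in KO1 (SE 0.15, interval -0.33 to 0.43) and -0.14 in KO2 (SE 0.15, interval -0.51 to 0.24); these 95% intervals use the 6 residual degrees of freedom of the fit.

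At day 0 KDR did not pass the test in KO1 (log2 0.43, SE 0.15, edgeR adjusted p = 0.402) or KO2 (log2 0.24, SE 0.15, edgeR adjusted p = 1). In KO1 it did pass with no filter on low counts (edgeR adjusted p = 0.000248). With replicate 1 of KO1 at day 0 left out the value was 0.74 (edgeR adjusted p = 3.03e-07), and with replicate 2 left out it was 0.04. The difference of KDR between KO1 and WT at day 0 thus sat in KO1 day 0 replicate 2. Both KO2 libraries at day 0 (243 and 257 CPM) also lay above both WT libraries (205 and 217 CPM). The KO2 difference ran from 0.20 to 0.28 with 1 library left out.

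FLT1, the second VEGF receptor, had another profile than KDR. It was at 207 and 214 CPM in WT at day 0 and at 197 and 216 CPM at day 4. KO1 had 190 and 218 CPM, then 223 and 232 CPM, and KO2 had 195 and 206 CPM, then 347 and 340 CPM. Both KO2 libraries at day 4 lay above all others, KO1 at day 4 came next without overlap, and among the other 4 groups, which spanned 190 to 218 CPM, neighbours in the order of means overlapped. Between days the log2 difference was -0.03 in WT (SE 0.08), 0.16 in KO1 (SE 0.08; 0.07 or 0.27 with the first or the other day 0 library left out) and 0.78 in KO2 (SE 0.08). At day 4 the KO2 mean was 1.66-fold that of WT (log2 0.73, SE 0.08) and 1.51-fold that of KO1 (log2 0.59, SE 0.08), while KO1 differed from WT by 0.14 (SE 0.08). At day 0 the differences from WT were -0.05 in KO1 (interval -0.24 to 0.15, edgeR adjusted p = 0.861) and -0.07 in KO2 (interval -0.27 to 0.13, edgeR adjusted p = 1).

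**Figure D2:**
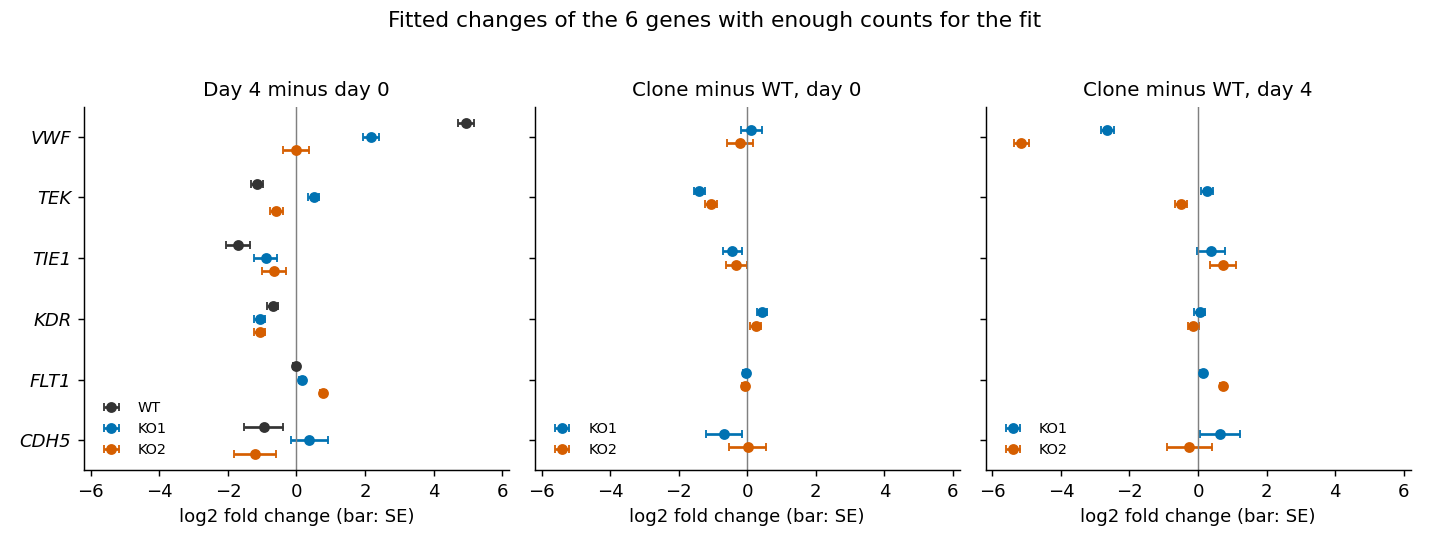
Fitted log2 fold changes (horizontal axes) of the 6 members that passed the filter, with SE bars, for day 4 minus day 0 in each line and for each knockout line minus WT at day 0 and at day 4. VWF has the widest spread between lines (4.94 in WT, 2.17 in KO1 and -0.01 in KO2 over time), KDR lies to the left of 0 in all 3 lines, and TEK is the member away from 0 for both knockout lines at day 0.

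RNA of the genes for the endothelial junction proteins was low: PECAM1 was at or near 0 and CDH5 at 4 to 21 counts per library. PECAM1 had 3 counts in all 12 libraries together, 1 each in KO1 day 0 replicate 1, KO2 day 0 replicate 2 and KO2 day 4 replicate 1. With a floor of 3 counts, which covers counting error only, the level in a library could be up to 0.133 to 0.294 CPM. CDH5 ran from 0.305 to 1.84 CPM with a median of 0.930 CPM over the 12 libraries. Its 2 WT libraries were at 1.84 and 0.848 CPM at day 0 and at 0.305 and 0.967 CPM at day 4, so the days overlapped. In KO2 they did not, at 1.22 and 1.37 CPM and then 0.802 and 0.335 CPM (log2 -1.22, SE 0.62), and KO2 at day 4 also lay below KO1 at day 4 (1.21 and 0.894 CPM). Its day 0 differences were -0.69 in KO1 (SE 0.52, edgeR adjusted p = 0.680) and 0.01 in KO2 (SE 0.53, edgeR adjusted p = 1). The label endothelial says where these genes are best known; of its junction markers, PECAM1 was at or near 0 in these cultures. Of 63 genes on 3 lists of endothelial genes, which do not include the 7 members, 49 passed the filter on low counts, 16 were under 1 CPM in every group and 1, the sialomucin gene EMCN, was at 0 in all libraries.

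Over the 6 tested members, 1 was higher and 3 were lower past an adjusted p of 0.05 in WT over time, where 24.3% of the 16792 tested features were higher and 25.4% lower. In KO1 against WT at day 4 no member was higher and 1 was lower (10.5% and 9.42% of all features). In KO2 against WT at day 4, 1 was higher and 1 lower (13.5% and 14.5%), and in KO2 against KO1 at day 4, 1 was higher and 2 were lower (10.8% and 14.3%). For the difference between the change in a knockout line and the change in WT, 2 members were past the threshold for KO1 (9.8% of all features) and 2 for KO2 (13.9%). All these counts use day 4 values seen when the genes were chosen, and nothing is read from them. At day 0, 1 of 6 passed in KO1 and 1 of 6 in KO2, TEK in both, against 0.238% and 0.143% of all features in either direction. The members were chosen with earlier results of these data known, so day 0 values may also have been in view.

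The ligands and coreceptors of these receptors were followed on a list of 13 genes, 11 of which were tested. This and the other gene lists were chosen with earlier results of these data known. The p-values of list genes are therefore not tests of genes picked blind. In WT cells 6 rose and 3 fell from day 0 to day 4, with a median log2 change of 0.62 against 0.00 over all tested features, of which 24.3% rose and 25.4% fell. ANGPT2, the context-dependent TEK ligand, had 0 and 1 counts at day 0 and 113 and 128 counts at day 4, so its ratio is not given (edgeR adjusted p = 4.75e-07). ANGPT1, the activating TEK ligand, rose from 2.71 and 2.33 CPM to 15.9 and 17.4 CPM (log2 2.73, SE 0.19, edgeR adjusted p = 1.87e-08). Its receptor TEK was lower at day 4 over the same days. NRP1 and NRP2, coreceptors that present VEGF and semaphorins, rose by 3.32 (SE 0.23, edgeR adjusted p = 1.59e-08) and 1.20 (SE 0.13, edgeR adjusted p = 1.89e-06) on the log2 scale. VEGFA rose by 0.62 (SE 0.12, edgeR adjusted p = 0.000648), FLT4, the VEGFR3 of lymphatic vessels, fell by 0.91 (SE 0.14, edgeR adjusted p = 6.23e-05), and VEGFB did not pass the test (log2 -0.18, edgeR adjusted p = 0.244). SVEP1, a matrix protein that binds TIE1, rose by 1.05 (SE 0.33, edgeR adjusted p = 0.0163), a call lost without WT day 0 replicate 2 (0.123) or WT day 4 replicate 2 (0.403).

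**Figure D3:**
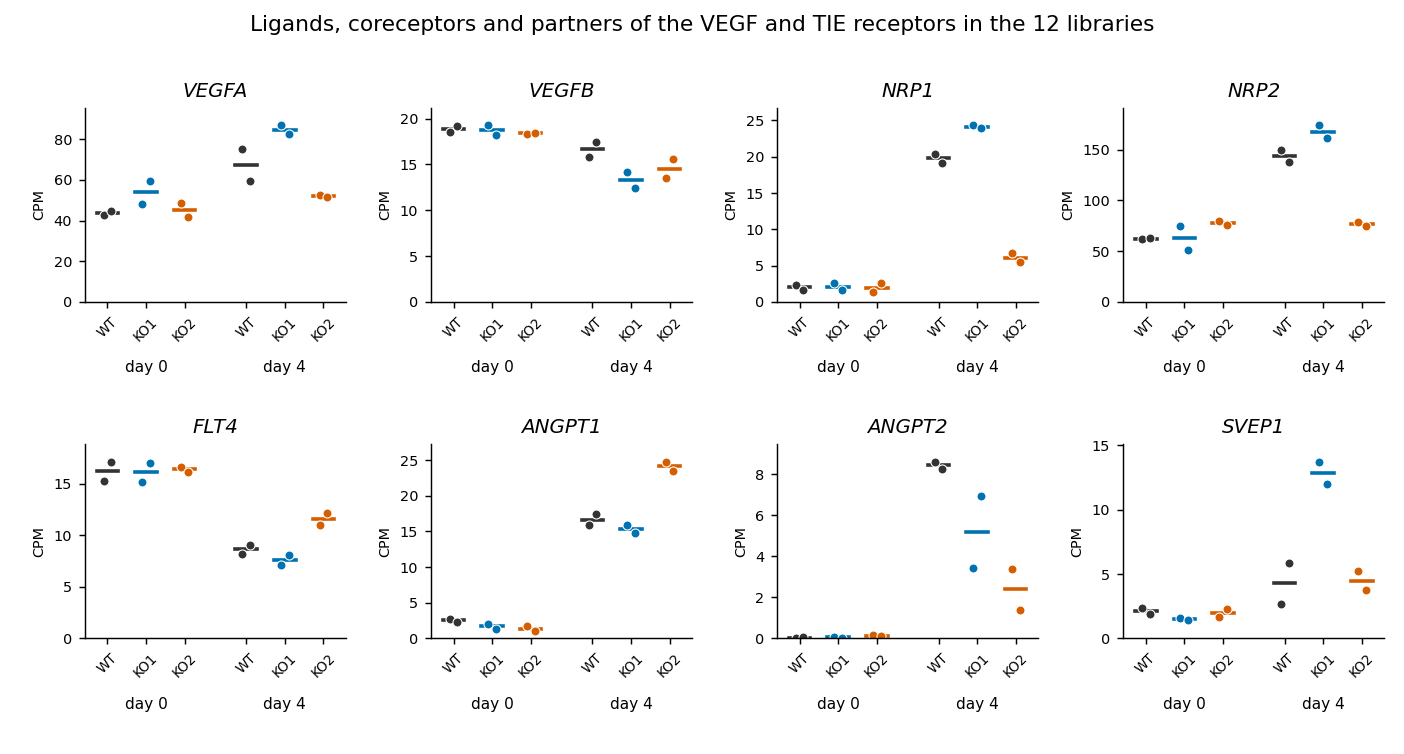
Levels (vertical axes, CPM, each from 0) of VEGFA, VEGFB, NRP1, NRP2, FLT4, ANGPT1, ANGPT2 and SVEP1 in the 12 libraries, drawn as for the members: dots are libraries and bars are group means. At day 4 NRP1, NRP2 and ANGPT2 are lower in KO2 than in WT, and SVEP1 is higher in KO1 (11.96 and 13.7 CPM) than in any other group.

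In KO1 against WT at day 4, 1 of 11 ligand list genes was higher and none lower (median 0.23, all features 0.01). Of all features, 10.5% were higher and 9.42% lower. The higher ligand list gene was SVEP1, at 13.7 and 11.96 CPM against 2.67 and 5.86 CPM in WT (log2 1.56, SE 0.26, edgeR adjusted p = 0.00067). The count depends on the fit: 5 of the 11 had an unadjusted p under 0.05, and with only the groups compared VEGFA (edgeR adjusted p = 0.0169) and NRP2 (0.0245) were also higher and VEGFB (0.0403) and ANGPT2 (0.0398) lower. The same 4 genes passed with either KO1 day 0 library left out. In KO2 against WT 2 were higher and 4 lower (median -0.20, all features 0.01), where 13.5% of all features were higher and 14.5% lower. NRP1 was at 6.74 and 5.49 CPM against 20.4 and 19.2 CPM in WT (log2 -1.70, SE 0.19, edgeR adjusted p = 1.05e-05), NRP2 at 79.1 and 74.7 CPM against 150 and 137 CPM (log2 -0.90, SE 0.13, edgeR adjusted p = 9.49e-05). ANGPT2 was at 3.37 and 1.41 CPM against 8.62 and 8.25 CPM (log2 -1.85, SE 0.34, edgeR adjusted p = 0.000801). These 3 coreceptors and ligands were lower in both KO2 libraries than in both WT libraries. VEGFA was lower (log2 -0.37, edgeR adjusted p = 0.0327), and ANGPT1 (0.53, edgeR adjusted p = 0.0113) and FLT4 (0.42, edgeR adjusted p = 0.0375) were higher; each of these 3 calls was lost when 1 of several libraries was left out, with adjusted p of up to 0.329 for VEGFA, 0.119 for ANGPT1 and 0.232 for FLT4.

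The difference of the change over time from that of WT was tested for the ligand genes. In KO2 it was -1.70 for NRP1 (SE 0.39, edgeR adjusted p = 0.00986), -1.22 for NRP2 (SE 0.18, edgeR adjusted p = 0.000506) and 1.38 for ANGPT1 (SE 0.33, edgeR adjusted p = 0.0123), and in KO1 it was 2.01 for SVEP1 (SE 0.46, edgeR adjusted p = 0.0133). NRP2 kept the call in all 18 alternatives. NRP1 lost it without WT day 0 replicate 2 (edgeR adjusted p = 0.0668) or KO2 day 0 replicate 2 (0.15), and ANGPT1 without WT day 0 replicate 1 (0.0526) or KO2 day 0 replicate 2 (0.0974). SVEP1 lost it without WT day 0 replicate 1 (0.0689), WT day 0 replicate 2 (0.0581) or KO1 day 4 replicate 1 (0.0512).

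A list of 20 genes around VWF covered storage in Weibel-Palade bodies, binding partners, cleavage and clearance. It also held THBD and TFPI, which fall under none of these headings but enter the counts and medians. Of the 20 genes, 12 were tested and 8 were not. The platelet receptor genes GP1BA and GP1BB were at 0 in all 12 libraries. In WT over time 6 rose and 2 fell (median 0.36, all features 0.00), where 24.3% of all features rose and 25.4% fell. Against WT at day 4, 2 were higher and 4 lower in KO1 (median -0.30). In KO2 1 was higher and 5 were lower (median -0.37). Medians over all features were 0.01 in both. The shares of all features higher and lower were those given above (10.5% and 9.42%, then 13.5% and 14.5%). THBD, the thrombin receptor thrombomodulin, rose in WT from 1.26 and 0.636 CPM to 6.79 and 5.99 CPM and was at 1.12 and 1.47 CPM in KO2 at day 4 (log2 -2.28, SE 0.32, edgeR adjusted p = 8.85e-05). TFPI, the tissue factor pathway inhibitor, was the gene that was higher in KO2 than in WT (log2 1.17, SE 0.23, edgeR adjusted p = 0.00161). It was also higher in KO1 (0.88, edgeR adjusted p = 0.0175), a call lost without any 1 of the 4 day 4 libraries compared. FURIN, the protease that removes the VWF propeptide, was 1.54-fold lower in KO2 than in WT (log2 -0.62, SE 0.09, edgeR adjusted p = 0.000184). CD63, a membrane protein of Weibel-Palade bodies and other late endosomal organelles, was lower in KO1 (log2 -0.41, SE 0.08, edgeR adjusted p = 0.0023). F8, the coagulation factor that VWF carries in plasma, rose by 1.20 in WT over time (SE 0.21, edgeR adjusted p = 0.000208). The calls of ADAMTS13, the protease that cuts VWF (-0.70, edgeR adjusted p = 0.00594), and of RAB27A (0.66, edgeR adjusted p = 0.0108), both in KO1 at day 4, were lost without KO1 day 4 replicate 1 (0.0719 and 0.0949), and RAB27A's also without WT day 4 replicate 1 (0.0925) or replicate 2 (0.0558).

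Endothelial transcription factors moved both ways. More rose than fell in WT over time, and more were lower than higher in KO2 at day 4. In WT over time 9 of 16 tested rose and 2 fell (median 0.71, all features 0.00), where 24.3% of all features rose and 25.4% fell. SOX18 rose from 0.968 and 0.494 CPM to 6.33 and 5.86 CPM (log2 3.11, SE 0.34, edgeR adjusted p = 2.12e-06) and FOXC1 rose 9.16-fold (log2 3.19, edgeR adjusted p = 2e-07), whereas ERG, a factor that maintains endothelial identity, fell from 5.81 and 6.71 CPM to 0.610 and 0.709 CPM (log2 -3.23, SE 0.34, edgeR adjusted p = 1.37e-06). In KO1 at day 4 none of the 16 passed in edgeR or DESeq2, and 1 had an unadjusted p under 0.05. Of all features, 10.5% were higher and 9.42% lower in KO1. In KO2 against WT at day 4, 1 was higher and 4 were lower (median 0.01, all features 0.01). Of all features, 13.5% were higher and 14.5% lower in KO2. FOXC1 (-1.87), SOX18 (-1.88) and SOX7 (-1.54) were among the lower ones, with edgeR adjusted p from 2.7e-05 to 0.000155. SOX17, SOX18 and SOX7 form one family, and SOX7 and SOX17 are also made in endoderm. Of the surface and signalling genes 7 of 22 rose and 10 fell in WT over time (median -0.32), beside the same 24.3% and 25.4% of all features. CAV1, a caveolar coat protein made by many cell types, rose 11.99-fold and NOS3, endothelial nitric oxide synthase, fell by 2.11 (edgeR adjusted p = 6.91e-05). Of all features, 0.238% passed at day 0 in KO1 and 0.143% in KO2. At day 0 CAV1 was the 1 gene of the 3 endothelial lists past the threshold in KO1, at 7.36 and 7.61 CPM against 12.6 and 11.9 CPM in WT; leaving out either WT day 0 library, replicate 2 of KO1 at day 0 or any 1 of the KO2 libraries gave a count of 0, and leaving out replicate 1 of KO1 at day 0 gave 10. In KO2 at day 0 none passed in edgeR or DESeq2, and 5 had an unadjusted p under 0.05; leaving out either KO1 day 0 library gave a count of 1.

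APLNR, the apelin receptor of early mesoderm and vessels, differed in opposite directions. It was at 5.64 and 7.99 CPM in WT at day 4, at 39.0 and 31.5 CPM in KO1 (log2 2.36, SE 0.17, edgeR adjusted p = 2.86e-07) and at 1.44 and 1.74 CPM in KO2 (log2 -2.09, SE 0.25, edgeR adjusted p = 1.9e-05). MCAM was higher in KO1 than in WT at day 4 (log2 0.96, SE 0.12, edgeR adjusted p = 6.22e-05). EFNB2, an ephrin of arterial vessels, was higher in KO2 than in WT (log2 1.01, SE 0.11, edgeR adjusted p = 1.13e-05). Over the 3 lists together, 49 of 63 genes were tested. In WT over time 22 rose and 15 fell (median 0.18, all features 0.00), where 24.3% of all features rose and 25.4% fell. Against WT at day 4, 6 were higher and 2 lower in KO1 (median 0.11). In KO2 5 were higher and 11 lower (median 0.00). Medians over all features were 0.01. Of all features 10.5% were higher and 9.42% lower in KO1, and 13.5% were higher and 14.5% lower in KO2. KO2 against KO1 had 4 higher and 16 lower (median -0.12), where 10.8% of all features were higher and 14.3% lower. The count of 8 in KO1 became 13 when KO1 day 0 replicate 1 was left out, and 5 when KO1 day 4 replicate 1 was. The count of 16 in KO2 was 10 without WT day 4 replicate 1 and 9 without KO2 day 4 replicate 2, and the count of 20 between the lines was 13 without KO2 day 4 replicate 2. The summed level of the 63 genes was 624 to 669 CPM at day 0, and at day 4 it was 1052 and 1104 CPM in WT, 1346 and 1271 CPM in KO1, and 1061 and 1066 CPM in KO2. These sums lean on high-count genes: CAV1 and NRP2 had means of 147 and 143 CPM in WT at day 4.

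Markers of other cell types moved with these results, and their part in the VWF pattern was not tested. Their counts at day 4 stand beside 10.5% of all features higher and 9.42% lower in KO1, 13.5% and 14.5% in KO2, and a median over all features of 0.01 in both. Of 21 endoderm markers, 19 were tested, and 17 rose in WT over time (median 5.95), where 24.3% of all features rose. In KO1 at day 4, 4 were higher and 7 lower than in WT (median -0.37). In KO2 none was higher and 18 were lower than in WT (median -2.51). Their summed level was 5889 and 5292 CPM in WT at day 4, 6022 and 5954 CPM in KO1, and 1437 and 1174 CPM in KO2. CER1 alone had a mean of 4032 CPM in WT at day 4, so most of the WT sum is this gene. CXCR4, the chemokine receptor used to mark definitive endoderm, was at 164 and 139 CPM, 53.2 and 58.1 CPM, and 10.0 and 7.09 CPM in the same order (log2 -1.44 in KO1 and -4.16 in KO2, edgeR adjusted p = 2.33e-06 and 1.68e-10). CXCR4 stood in the same order of lines as VWF at day 4, but not all markers did. Among the 4 that were higher in KO1 than in WT were MIXL1 (log2 1.29, edgeR adjusted p = 3.74e-06) and CD177 (1.28, edgeR adjusted p = 4.33e-05). AFP was also higher there (1.49, edgeR adjusted p = 0.0146), a call lost in DESeq2 (adjusted p = 0.113). Of 10 tested mesoderm markers, 4 were higher and none lower in KO1 than in WT at day 4 (median 0.95). In KO2 1 was higher and 3 were lower than in WT (median -0.11). Of 9 mural cell markers, 5 were higher and 1 lower in KO1 than in WT at day 4 (median 0.57). In KO2 1 was higher and 2 were lower than in WT (median -0.10). Blood cell markers summed to between 6.56 and 15.8 CPM in every library, with 7 of 12 under 1 CPM in every group. Of 9 pluripotency markers, 7 were higher and 1 was lower in KO2 than in WT at day 4 (median 0.49). This compares lines and is not a rise over time. Their summed level in KO2 was 7326 and 7364 CPM at day 0 and 6600 and 6660 CPM at day 4. In WT at day 4 it was 5292 and 5446 CPM.

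The genes whose profile was most like that of VWF were found by Pearson r of log2 CPM over the 12 libraries, among 12451 named features. They were APOA2 (r = 0.985), CNGA4 (0.984), PLXNA4 (0.980), KLF8 (0.978) and EYA2 (0.973). APOA2 encodes an apolipoprotein of high-density lipoprotein, CNGA4 a cyclic nucleotide-gated channel subunit, PLXNA4 a semaphorin receptor, KLF8 a zinc finger factor and EYA2 a transcriptional coactivator. At day 4 PLXNA4 was at 78.3 and 67.9 CPM in WT, 39.3 and 37.6 CPM in KO1 and 16.8 and 15.2 CPM in KO2, against 14.3 to 16.6 CPM in the day 0 libraries. EYA2 was at 22.1 and 21.5 CPM in WT, 5.96 and 6.26 CPM in KO1 and 2.81 and 1.94 CPM in KO2. Each of the 5 genes had its 2 highest libraries in WT at day 4 and its next 2 in KO1 at day 4. This order follows from the choice by r with VWF and adds nothing to it. None of them is on the endothelial lists, but those hold only 49 tested genes, so this says little. Among the 21 endoderm markers, r with VWF was 0.96 for KIT, 0.90 for CXCR4, 0.78 for SOX17 and -0.18 for TTR; these 4 were chosen after their values were seen. The points share library, day and line, so no p is given.

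For KDR the nearest profiles were HLTF (r = 0.990), SESN3 (0.989), SDK1 (0.986), HECA (0.986) and HRC (0.985). HLTF, a DNA helicase-like ATPase of replication fork repair, was at 206 CPM in KO1 day 0 replicate 2 and at 126 CPM in replicate 1, against 59.4 to 74.7 CPM at day 4. SESN3, a stress-responsive sestrin, was at 117 CPM and 70.1 CPM in the same KO1 libraries and at 17.5 to 26.0 CPM at day 4. All 5 were highest in KO1 day 0 replicate 2, as KDR was, which follows from their choice by r with KDR.

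**Figure D4:**
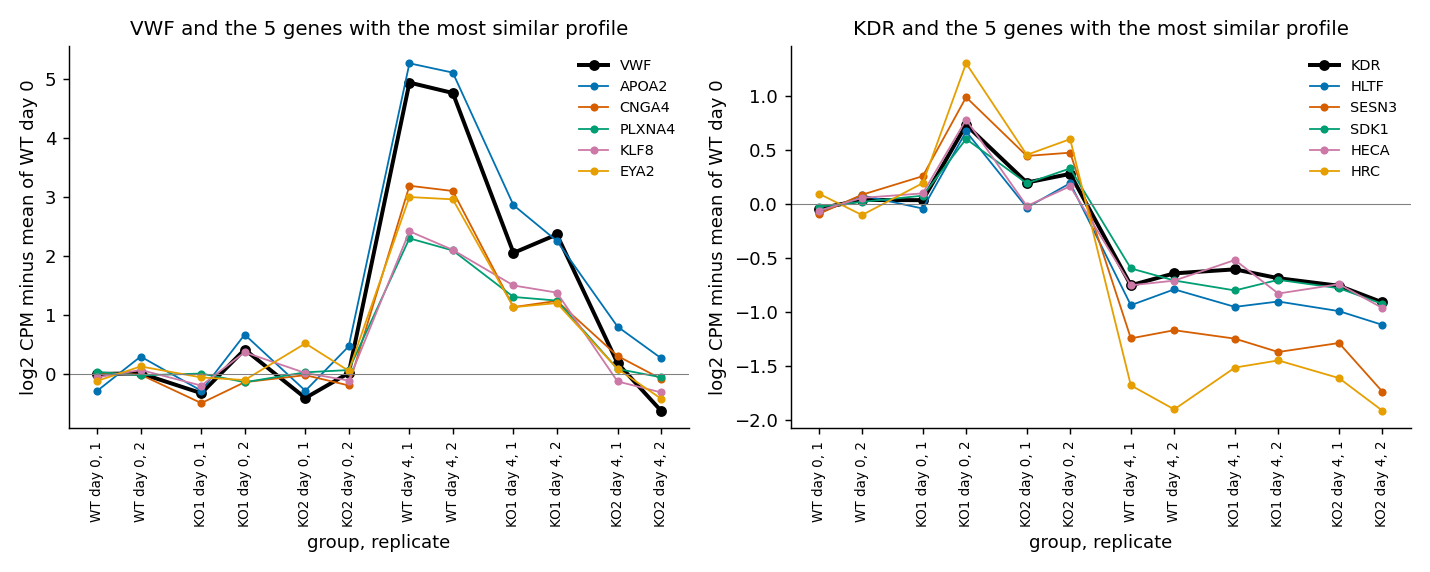
Log2 CPM of VWF (left) and KDR (right), in black, with the 5 genes nearest in profile to each, as the difference from the WT day 0 mean of the gene (vertical axes), in the 12 libraries by group and replicate; lines only join points of 1 gene. On the left all 6 genes peak in WT at day 4 with KO1 between WT and KO2, and on the right all 6 are highest in KO1 day 0 replicate 2 and lower at day 4. The genes were picked by their correlation with VWF or KDR over these libraries, so the likeness follows from the choice.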

How the data were processed

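Poly(A) RNA-seq of 12 libraries was analysed; 8 ChIP-seq samples were not used here. Libraries were made with a stranded mRNA kit from total RNA, per the labels' protocols. The authors deposited whole-number counts per feature for each library, one file per sample; Bowtie2 2.1.0, HTSeq 0.6.1 and hg19 are named in the submitters' processing notes. The annotation, the strand setting and the quality minimum were not stated in these sources. Lines for reads without a feature (29.2% to 30.5% of all) or of low quality (19.3% to 22.2%) name no gene and were left out.

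The counts were fitted in R 4.3.3 with edgeR 4.0.16 (quasi-likelihood test, TMM scaling, filterByExpr), with 1 model for the 6 groups over all 12 libraries, which gives 6 residual degrees of freedom. P-values were adjusted by Benjamini-Hochberg over the 16792 tested features, with a threshold of 0.05. The SE of a log2 difference is its size divided by the square root of F. Members and gene lists were chosen with earlier results of these data known. Members therefore carry p-values at day 0 only. Named genes are the 7 members, the ligand list's genes with a group mean of at least 5 CPM, the 3 largest called each way of every other list in WT over time and in each knockout line at day 4, and the 5 nearest profiles of VWF and KDR (log2 CPM, prior count 2); of these, those that carry the pattern are described.

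Alternatives were DESeq2 1.42.0, other scaling factors, no filter on low counts, a fit of only the groups compared, a replicate block and leaving out each library. Upstream sequences came from RefSeq (GRCh38.p14), matched by symbol; no coordinates of the files' build were used. Figures were drawn with matplotlib.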

Additional observations from a re-analysis of the deposited data

Results flagged for a closer look

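Changes from day 0 to day 4 were compared between a knockout line and WT for the members and the ligand genes, and 8 gene and line pairs stood out. Values are log2 change in the knockout line minus log2 change in WT. For VWF the difference was -2.76 in KO1 (SE 0.36; -2.29 with replicate 2 of KO1 at day 0 left out) and -4.95 in KO2 (SE 0.49). TEK differed by 1.65 in KO1 (SE 0.24), where WT was lower at day 4 than at day 0 and KO1 was higher. FLT1 differed by 0.80 in KO2 (SE 0.11). These members were chosen with day 4 values known, and the threshold that listed them used the same values. Their listing is therefore no test, and their differences are a description. Members short of that threshold are left out, among them CDH5 in KO1 (1.33, SE 0.78) and TIE1 in KO2 (1.05, SE 0.49). The ligand genes were tested, though their list too was chosen with earlier results known. Among them SVEP1 differed by 2.01 in KO1 (edgeR adjusted p = 0.0133). In KO2 the value was 1.38 for ANGPT1 (edgeR adjusted p = 0.0123), -1.70 for NRP1 (edgeR adjusted p = 0.00986) and -1.22 for NRP2 (edgeR adjusted p = 0.000506).

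The TEK difference in KO1 moved with either day 0 library: the value was 1.36 with replicate 2 of KO1 at day 0 left out and 1.95 with replicate 1 left out.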

How the results depend on the processing

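The direction of the VWF differences between lines at day 4 held in all 18 alternatives, and TEK at day 0 in KO1 kept its call. Leaving out 1 library, which leaves its group with a lone sample assumed to vary like the other groups, moved the endothelial list counts most. They ran from 5 to 13 in KO1 against WT at day 4 (8 with all libraries), 9 to 18 in KO2 (16), 13 to 21 between the lines (20), 0 to 10 in KO1 at day 0 (1) and 0 to 1 in KO2 at day 0 (0). Members called at day 0 ran from 1 to 3 in KO1 and from 0 to 1 in KO2. Genes whose change over time differed from WT ran from 3 to 10 in KO1 (5) and from 6 to 12 in KO2 (10). With no filter on low counts the last of these for KO1 was 8, members called at day 0 in KO1 were 2, and the KO2 day 0 list count was 1. With only the groups compared in the fit, the KO1 day 0 list count was 0. DESeq2 called 3 endothelial transcription factors in KO2 at day 4, where edgeR called 5.

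Among tested values, directions turned only where the main value had not passed. At day 0 the KO1 difference from WT ran over the left-out libraries from -0.36 to 0.43 for VWF, -1.07 to 0.057 for TIE1 and -0.15 to 0.048 for FLT1, and the KO2 difference from -0.45 to 0.0071 for VWF and from -0.51 to 0.60 for CDH5. CDH5 in KO2 was -0.030 in DESeq2. SVEP1 in KO2 at day 4 ran from -0.42 to 0.72. The cause of these shifts was not tested.

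Replicate numbers showed at most weak pairing of the libraries. Over 15 pairs of groups the correlation of same-numbered deviations ran from -0.04 to 0.15. Of these, 12 were above 0 and 1 was above 0.1. With the replicate block the list counts were 38 in WT over time, 8 in KO1, 17 in KO2 and 20 between the lines at day 4, and CDH5 in KO2 at day 0 was -0.0012. PECAM1, CDH5 and the KO2 VWF levels are limited by depth, at 0 to 29 counts per library.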
